A study of Mus musculus with 8 samples.

Results

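The comparison set Id2-GFP- pre-CD8 cells against Id2-GFP+ CDP cells, the candidate intermediates between Id2-GFP- CDP and Id2-GFP+ pre-CD8, in sorted mouse bone marrow progenitors of dendritic cells. The arrays were taken by their titles, 2 for each candidate, which made 4 of the 8 arrays of the series. The other 4 arrays, 2 of Id2-GFP+ pre-CD8 and 2 of Id2-GFP- CDP, were used as end points. The genotype field reads heterozygous Zbtb46-GFP for Id2-GFP- pre-CD8, Id2-GFP+ CDP and Id2-GFP+ pre-CD8, and heterozygous Id2-IRES-GFP for Id2-GFP- CDP alone, although the source text names the Id2 reporter for all of them. Both candidates therefore carry the same genotype entry, and a comparison with Id2-GFP- CDP also sets 1 genotype entry against another. The sort gates, ages and number of animals are not given in the labels. The submitters' stated aim was to find expression signatures of these progenitors and the order in which they arise. Nothing in the labels ties a replicate to an animal of its own, so each p-value reflects a spread between arrays, possibly a technical one. That spread was pooled within all 4 groups, end points included, and moderated across genes.

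CDP is the usual name for the common dendritic cell progenitor, which gives rise to conventional and plasmacytoid dendritic cells, and pre-CD8 is the labels' name for a progenitor named after the CD8 class of dendritic cell, now called cDC1. Id2 encodes a helix-loop-helix protein that binds E proteins and keeps them from DNA. Conventional dendritic cells of the cDC1 class need Id2, Batf3 and Irf8, whereas the E protein Tcf4 drives plasmacytoid dendritic cells and other E proteins drive lymphoid genes such as Rag1.

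Values are log2 of the deposited intensities, which RMA, a method that corrects background, normalises arrays and summarises probes, had produced. Median log2 intensity lay between 6.12 and 6.27 on the 8 arrays. Mean intensity was 461 to 478 on a brighter array of each group and 402 to 414 on a dimmer one. The brighter arrays were Id2-GFP- pre-CD8 replicate 1, Id2-GFP+ CDP replicate 2, Id2-GFP+ pre-CD8 replicate 2 and Id2-GFP- CDP replicate 1. Differences are therefore also given within the brighter pair and within the dimmer pair of arrays. Brightness was read from the tested intensities themselves and is not a recorded batch. Counts from a fit with brightness as a block may therefore be too high, and they are given as a description. In these bulk samples, fewer cells of a type and less RNA per cell cannot be told apart.

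The sort was made on a reporter, so the Id2 transcript was read first. Id2 had a log2 intensity of 5.90 and 7.18 on the Id2-GFP- pre-CD8 arrays, against 9.77 and 9.26 on the Id2-GFP+ CDP arrays. The groups did not overlap, and the difference was -2.97 ± 0.48 (log2 ± SE) with a limma adjusted p of 0.0113. Without Id2-GFP+ CDP replicate 1 the adjusted p was 0.0672. Id2-GFP+ pre-CD8 stood at 10.69 and 10.99, above both candidates, and Id2-GFP- CDP at 5.14 and 6.30. Neither of the other Id genes on the list passed: Id1 differed by -0.77 with an adjusted p of 0.159 and Id3 by 0.16 with an adjusted p of 0.906. Zbtb46, the gene of the other reporter, had 5.50 and 6.12 in Id2-GFP- pre-CD8, against 7.08 and 6.96 in Id2-GFP+ CDP, a difference of -1.22 ± 0.29 that missed the threshold with an adjusted p of 0.0522.

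Across 19938 genes, Id2-GFP- pre-CD8 had 415 higher and 560 lower than Id2-GFP+ CDP at a limma adjusted p under 0.05, which is 2.08% and 2.81% of the genes tested (4.89% in all, and 14.4% at an unadjusted p under 0.05). With the brighter and dimmer arrays as a block 12.1% of all genes were called higher and 9.88% lower. Dntt, which encodes the terminal transferase that adds bases at antigen receptor joints, had 11.86 and 12.07 in Id2-GFP- pre-CD8, against 6.38 and 7.77 in Id2-GFP+ CDP. Its difference of 4.89 ± 0.47 was the largest on the higher side, with an adjusted p of 0.00135. On the lower side Ifi205, of the interferon-inducible Ifi200 family and a cDC1 marker, had 6.29 and 6.39 in Id2-GFP- pre-CD8, against 10.94 and 10.90 in Id2-GFP+ CDP. That difference was -4.58 ± 0.37 with an adjusted p of 0.000865. With Dntt, the 15 largest differences on the higher side ended at 3.11 for Slc18a1, a vesicular monoamine transporter, and with Ifi205 those on the lower side ended at -3.75 for Lrg1, a secreted glycoprotein. The plot of 16 genes by array shows the patterns described below.

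**Figure D1:**
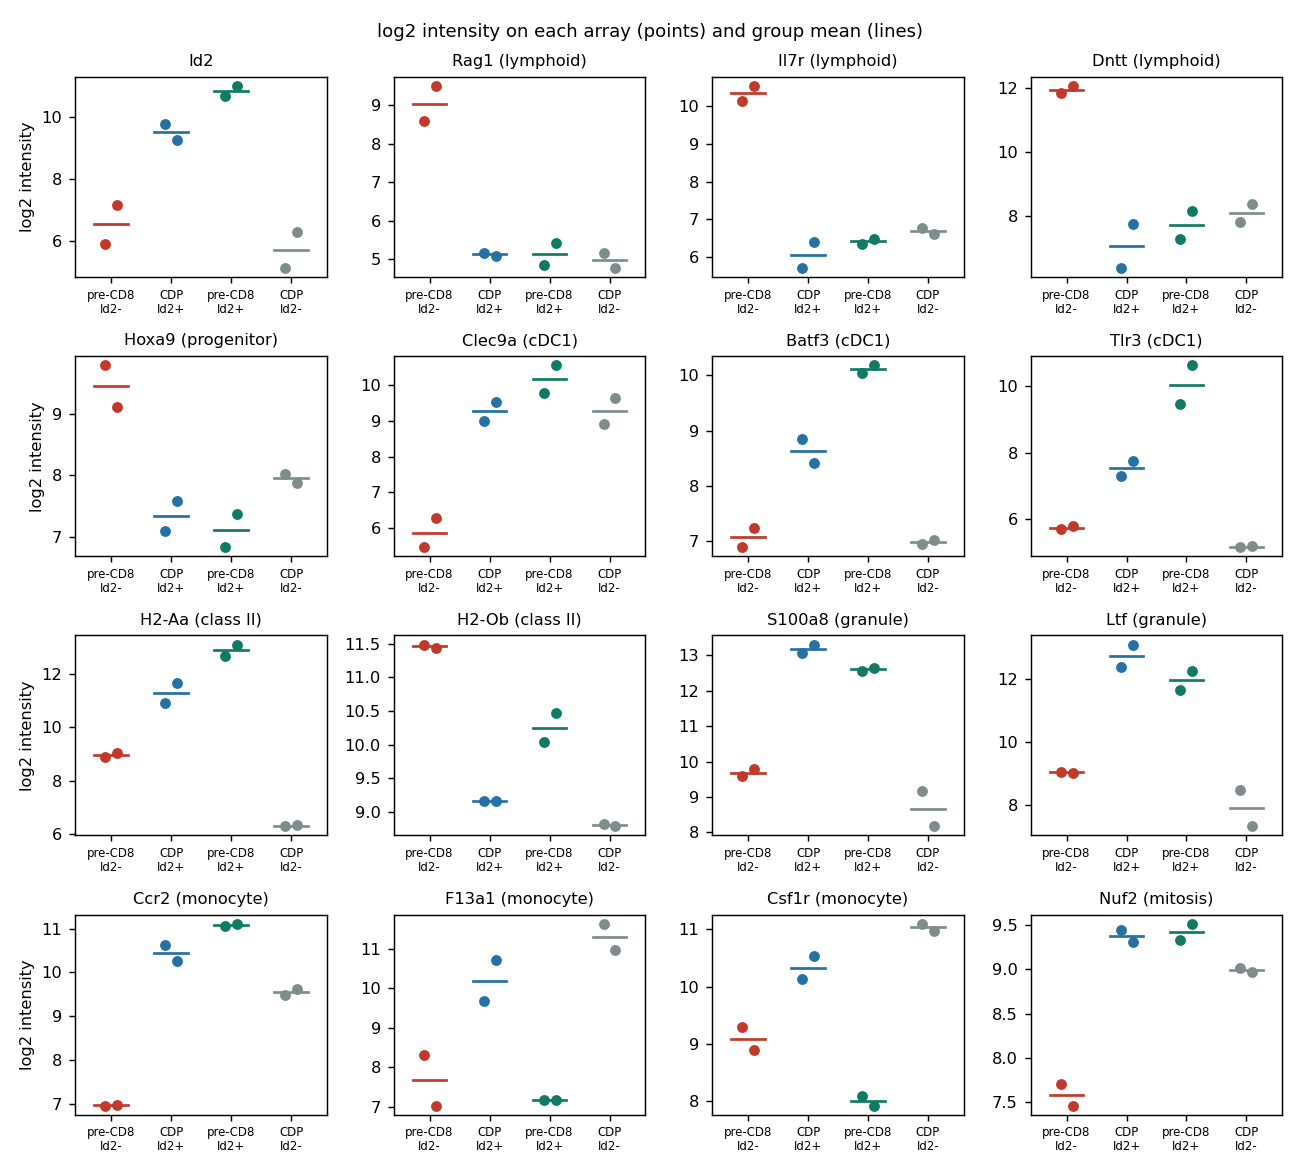
Log2 intensity (vertical axis) of 16 genes on each array (points) with the group mean (line), for Id2-GFP- pre-CD8, Id2-GFP+ CDP, Id2-GFP+ pre-CD8 and, rightmost, Id2-GFP- CDP. Rag1, Il7r, Dntt and Hoxa9 stand high in Id2-GFP- pre-CD8 alone, S100a8 and Ltf stand high in both Id2-GFP+ groups, and the means of F13a1 and Csf1r are lowest in Id2-GFP+ pre-CD8.

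Genes of antigen receptor recombination and early lymphoid development were high in Id2-GFP- pre-CD8. Of 17 such genes 9 rose and 0 fell, with a list median of 2.70 (log2), against a median of -0.01 over all genes. Rag1, a subunit of the recombinase that cuts antigen receptor genes, had 8.58 and 9.50 in Id2-GFP- pre-CD8, against 5.16 and 5.08 in Id2-GFP+ CDP. The 2 Id2-GFP- pre-CD8 arrays were above every other array of the series for this gene, since those of both end points lay between 4.76 and 5.42. The difference for Rag1 was 3.92 ± 0.32 with an adjusted p of 0.000865, and that for its partner Rag2 was 2.70 ± 0.14. Il7r, the receptor chain for interleukin 7 that early lymphocytes need, had 10.14 and 10.52 in Id2-GFP- pre-CD8, against 5.71 and 6.41 in Id2-GFP+ CDP. That gap of 4.27 ± 0.26 was 3.73 within the brighter pair and 4.81 within the dimmer pair. Also higher were Lax1, a lymphocyte signalling adaptor, by 4.48 ± 0.24, Myl10, a myosin light chain, by 4.42 ± 0.32, Blnk, the adaptor of the B cell receptor pathway, by 3.88 ± 0.34, and Ccr9, a homing receptor for gut and thymus, by 3.45 ± 0.31. Ebf1, a factor that starts the B lineage, rose by 3.09 ± 0.33. The 8 members that did not pass included Ly6d at 2.16, with values of 8.36 and 10.25 in Id2-GFP- pre-CD8, against 7.35 and 6.94 in Id2-GFP+ CDP, and the E protein gene Tcf3 at 0.09. Leaving out any single array gave 9 to 11 higher genes.

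Markers of committed B cells changed in both directions, and most did not pass. Of 17 B lineage markers 5 rose and 2 fell, with a median of 0.34. Those that rose were Ebf1, Blnk, the surrogate light chain gene Vpreb1 at 1.22, the scaffold gene Bank1 at 1.47 and the kinase gene Blk at 1.46. Pax5, which fixes B cell identity, differed by 0.60 with an adjusted p of 0.302, Cd79a of the B cell receptor by 0.34 with an adjusted p of 0.696, and Ms4a1, which encodes CD20, by -0.12 with an adjusted p of 0.940. Cd22, a sialic acid-binding receptor, fell by 3.24 with an adjusted p of 0.0152. Vpreb1 was not called with Id2-GFP- pre-CD8 replicate 2 or Id2-GFP+ CDP replicate 1 left out. Cd22 was not without replicate 1 of either candidate. The 2 that fell were 1 without Id2-GFP- pre-CD8 replicate 2 and 0 when Id2-GFP- pre-CD8 replicate 1 was dropped or without Id2-GFP+ CDP replicate 1. The mean log2 level of the B list was 6.69 to 6.97 on the Id2-GFP- pre-CD8 arrays and 6.25 to 6.36 on the Id2-GFP+ CDP arrays, and the part of B cells in the lymphoid difference was not tested.

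Genes of early haematopoietic progenitors were also high in Id2-GFP- pre-CD8. Of 27 such genes 10 rose and 0 fell, and the median was 1.28. Hoxa9, a homeobox factor of stem and progenitor cells, had 9.80 and 9.12 in Id2-GFP- pre-CD8, against 7.10 and 7.59 in Id2-GFP+ CDP. The groups did not overlap and differed by 2.12 ± 0.31, with an adjusted p of 0.00724. Mycn, a Myc family factor, rose by 3.24 ± 0.27, Socs2, an inhibitor of cytokine signalling, by 3.35 ± 0.16, and Ctla2a, a protease inhibitor, by 3.62 ± 0.36. Flt3, the receptor for the cytokine that dendritic cell progenitors depend on, had 12.58 and 12.23 in Id2-GFP- pre-CD8, against 10.73 and 11.34 in Id2-GFP+ CDP, a rise of 1.37 ± 0.26 with an adjusted p of 0.0209. Of the genes that did not pass, the stem cell factor receptor gene Kit overlapped between the groups, at 11.48 and 10.44 in Id2-GFP- pre-CD8, against 9.87 and 10.89 in Id2-GFP+ CDP. Flt3 was not called with either Id2-GFP- pre-CD8 array or Id2-GFP+ CDP replicate 1 left out. The count of 10 was 4 without Id2-GFP- pre-CD8 replicate 1 or without Id2-GFP+ CDP replicate 1. With the brighter and dimmer arrays as a block it was 23, and the 4 Hoxa genes that follow became 7. Among 10 Hoxa genes 4 rose (Hoxa3, Hoxa5, Hoxa6 and Hoxa9), and 2 with replicate 1 of either candidate left out. Hoxa6 lost its call in both of these settings, and Hoxa3 when any array but those of Id2-GFP- CDP was left out.

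Secondary granule proteins and calprotectin, which neutrophil precursors make late in their maturation, were low in Id2-GFP- pre-CD8. All measured members but 1 passed: of 18 genes 17 fell and 0 rose, with a median of -3.40, and of -3.61 within the brighter pair and -3.00 within the dimmer pair. S100a8, a calprotectin subunit, had 9.58 and 9.79 in Id2-GFP- pre-CD8, against 13.05 and 13.30 in Id2-GFP+ CDP. Its difference was -3.48 ± 0.30 with an adjusted p of 0.00101. Ltf, which encodes lactoferrin, had 9.04 and 9.02 in Id2-GFP- pre-CD8, against 12.38 and 13.09 in Id2-GFP+ CDP, and fell by 3.70 ± 0.40. Camp, the cathelicidin gene, fell by 3.21 ± 0.28, and Ly6g, the surface marker of mouse neutrophils, by 3.61 ± 0.29. The exception was Padi4, a histone-modifying enzyme of neutrophils, at -0.22. Id2-GFP+ pre-CD8 shared the high level, with S100a8 at 12.56 and 12.65, while Id2-GFP- CDP had 9.17 and 8.17. Between 14 and 17 of the 18 fell when any 1 array was left out.

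Primary granule genes, made at the promyelocyte stage, gave few calls. Of the 10 genes on this list 2 fell, and the median was -0.02. The 2 were Prtn3 (proteinase 3) and Ms4a3, which is of the Ms4a membrane protein family and not a granule protein. Elane, neutrophil elastase, had 8.83 and 8.08 in Id2-GFP- pre-CD8, against 9.98 and 12.27 in Id2-GFP+ CDP, with an adjusted p of 0.109. The replicate arrays of Id2-GFP+ CDP were far apart for this gene, as they were for Ms4a3 at 8.66 and 10.85. The 2 became 0 with Id2-GFP+ CDP replicate 2 or Id2-GFP- pre-CD8 replicate 2 left out, 1 with either Id2-GFP+ pre-CD8 array or Id2-GFP- pre-CD8 replicate 1 left out, and 3 with Id2-GFP+ CDP replicate 1 left out.

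Markers of monocytes and macrophages were low in Id2-GFP- pre-CD8 as well. Of 19 such genes 12 fell and 0 rose, with a median of -1.24. Ccr2, the receptor by which monocytes and dendritic cell precursors leave the marrow, had 6.97 and 6.98 in Id2-GFP- pre-CD8, against 10.63 and 10.25 in Id2-GFP+ CDP. It fell by 3.46 ± 0.20 with an adjusted p of 0.000309. Fn1, fibronectin, had 6.62 and 6.20 in Id2-GFP- pre-CD8, against 10.48 and 10.63 in Id2-GFP+ CDP, a difference of -4.15 ± 0.33. Lyz2, lysozyme, fell by 3.19 ± 0.24 and Cx3cr1, the fractalkine receptor, by 1.69 ± 0.17. Csf1r, the receptor for the macrophage growth factor, fell by 1.24 ± 0.23. Csf1r and F13a1, described further below, lost their calls with replicate 2 of either candidate left out. The mean log2 level of the monocyte list was 7.81 to 8.03 on the Id2-GFP- pre-CD8 arrays, with 9.41 to 9.67 on the Id2-GFP+ CDP arrays, and that of the secondary granule list 7.81 to 7.87 on the Id2-GFP- pre-CD8 arrays, with 10.60 to 11.39 on the Id2-GFP+ CDP arrays. The part that cells of these lineages within a sort had in any result was not tested.

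Those markers of cDC1 that passed the test were lower in Id2-GFP- pre-CD8. Of 24 markers 10 fell and 0 rose, with a median of -0.55. Clec9a, a receptor for dead cells that marks cDC1 and their progenitors, had 5.47 and 6.28 in Id2-GFP- pre-CD8, against 9.01 and 9.52 in Id2-GFP+ CDP. The groups lay apart, and the difference was -3.39 ± 0.40 with an adjusted p of 0.00303. Batf3, the factor that keeps Irf8 on in cDC1, had 6.89 and 7.24 in Id2-GFP- pre-CD8, against 8.85 and 8.41 in Id2-GFP+ CDP. It fell by 1.56 ± 0.23 with an adjusted p of 0.00763, and 0.0565 without Id2-GFP- pre-CD8 replicate 1. Cd226, an activating adhesion receptor, fell by 3.72 ± 0.24, Naaa, a lysosomal amidase, by 3.19 ± 0.30, and Tlr3, the sensor of double-stranded RNA, by 1.79 ± 0.35. Of the markers that did not pass, the chemokine receptor gene Xcr1 stood at 5.20 and 4.82 in Id2-GFP- pre-CD8, against 4.89 and 4.86 in Id2-GFP+ CDP. These values are below the median of every array, where a difference is hard to see. The integrin gene Itgae differed by -0.03. Tlr3 lost its call when any array of either candidate was left out. The count of 10 was 6 without Id2-GFP- pre-CD8 replicate 1 or Id2-GFP+ CDP replicate 2. Of 19 markers shared by conventional dendritic cells 5 fell and 2 rose, with a median of -1.20. The 5 were 2 without Id2-GFP- pre-CD8 replicate 1 and 3 without either Id2-GFP+ CDP array, and the 2 were 0 or 1 without any array of either candidate.

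Transcription factors of dendritic cells divided between directions. Of 38 such genes 3 rose and 9 fell. Besides Id2 and Batf3, Bcl6, a repressor needed by cDC1, fell by 1.76 ± 0.21, Klf4, a factor of cDC2 and monocytes, by 2.82 ± 0.42, Spi1, which encodes PU.1, by 1.15 ± 0.25, and Mycl by 1.09 ± 0.23. Those that rose were Mycn, Tcf4 at 0.85 ± 0.19 with an adjusted p of 0.0460, and Bcl11a, a factor of lymphoid and plasmacytoid cells, at 0.93 ± 0.18. Irf8, the factor on which cDC1 depend, had 11.45 and 12.10 in Id2-GFP- pre-CD8, against 12.71 and 12.62 in Id2-GFP+ CDP. The groups did not overlap for Irf8, but the difference of -0.89 ± 0.22 had an adjusted p of 0.0658. Zeb2, a repressor of the cDC1 fate, overlapped at 9.25 and 8.84 in Id2-GFP- pre-CD8, against 8.16 and 9.30 in Id2-GFP+ CDP. Spi1 and Mycl lost their calls when any array of Id2-GFP- pre-CD8, Id2-GFP+ CDP or Id2-GFP- CDP was left out, Bcl11a when any array of either candidate was, and Tcf4 in every case but Id2-GFP+ CDP replicate 2. The number that rose was 1 without either Id2-GFP- pre-CD8 array or without Id2-GFP+ CDP replicate 1. The number that fell was 3 without Id2-GFP- pre-CD8 replicate 1, and 5 with Id2-GFP- pre-CD8 replicate 2 left out or without either Id2-GFP+ CDP array.

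Class II MHC molecules present peptides to CD4 T cells, and genes of both directions were called among them. Of 10 genes of the pathway 4 fell and 1 rose in Id2-GFP- pre-CD8, and the median was -1.06. H2-Aa, the alpha chain of I-A, had 8.88 and 9.04 in Id2-GFP- pre-CD8, against 10.90 and 11.66 in Id2-GFP+ CDP. It fell by 2.32 ± 0.28 with an adjusted p of 0.00334, and by 2.78 and 1.86 within the brighter and the dimmer pair. H2-Ab1, the beta chain, fell by 1.42 ± 0.22, Cd74, the invariant chain, by 1.64 ± 0.32, and Ciita, the coactivator of class II genes, by 1.38 ± 0.32 with an adjusted p of 0.0499. The gene that rose was H2-Ob, the beta chain of H2-O, which inhibits peptide loading. H2-Ob had 11.49 and 11.44 in Id2-GFP- pre-CD8, against 9.16 and 9.16 in Id2-GFP+ CDP, and rose by 2.30 ± 0.20 with an adjusted p of 0.00108. The arrays of each group lay within a narrow range for this gene, and H2-Ob kept its call whichever array was left out. Of the 4 that fell, H2-Aa did so too. H2-Ab1 lost its call without either Id2-GFP- pre-CD8 array, Cd74 with Id2-GFP- pre-CD8 replicate 1 left out or without either Id2-GFP+ CDP array, and Ciita without any array of either candidate or of Id2-GFP- CDP. The number that fell was 1 without Id2-GFP- pre-CD8 replicate 1 and 2 with Id2-GFP- pre-CD8 replicate 2 left out or without Id2-GFP+ CDP replicate 2.

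Because H2-Ob rose where 4 genes of its pathway fell, its promoter window is shown beside those of H2-Aa and H2-Eb1, a beta chain gene that differed by -1.29 with an adjusted p of 0.0611. The windows of 300 bases around the gene start are from RefSeq on GRCm38.p6, at chr17:34287774-34288073 on the minus strand for H2-Aa, chr17:34305617-34305916 on the plus strand for H2-Eb1 and chr17:34238655-34238954 on the plus strand for H2-Ob. Capitals mark the Y box CTGATTGG, an inverted CCAAT motif of class II promoters, searched as these letters on both strands.
H2-Aa: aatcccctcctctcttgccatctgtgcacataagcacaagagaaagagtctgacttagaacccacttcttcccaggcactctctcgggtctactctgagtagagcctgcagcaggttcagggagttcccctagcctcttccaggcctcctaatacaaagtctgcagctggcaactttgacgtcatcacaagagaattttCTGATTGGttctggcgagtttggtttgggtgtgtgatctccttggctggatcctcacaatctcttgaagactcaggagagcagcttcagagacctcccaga
H2-Eb1: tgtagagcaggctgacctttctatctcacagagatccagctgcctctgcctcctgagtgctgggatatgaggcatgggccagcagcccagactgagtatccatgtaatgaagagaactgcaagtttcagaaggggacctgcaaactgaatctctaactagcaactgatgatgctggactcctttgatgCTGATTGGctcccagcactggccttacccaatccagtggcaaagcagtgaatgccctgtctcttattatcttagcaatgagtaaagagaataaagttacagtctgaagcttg
H2-Ob: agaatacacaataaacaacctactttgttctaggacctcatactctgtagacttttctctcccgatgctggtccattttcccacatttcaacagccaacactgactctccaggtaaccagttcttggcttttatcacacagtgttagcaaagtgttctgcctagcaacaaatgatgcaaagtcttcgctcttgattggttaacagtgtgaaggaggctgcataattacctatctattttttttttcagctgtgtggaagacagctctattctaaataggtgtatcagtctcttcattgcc

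Counted from the gene start, the Y box began at -51 in H2-Aa and at -62 in H2-Eb1, and the whole motif is not in the H2-Ob window. Its last 7 letters, TGATTGG, which hold the inverted CCAAT, are in that window on the same strand, beginning at -59, beside -50 in H2-Aa and -61 in H2-Eb1, so H2-Ob differs from the searched motif there in the first letter alone. The shorter motif, chosen after these sequences were seen and searched on both strands, was in 5 of the 7 class II genes with a window and in 10.1% of all genes with a promoter in the table. The whole Y box was in 4 of these 7 class II genes, against 849 of 15614 genes with a promoter in the table (5.44%). Besides H2-Aa these were H2-Eb1, H2-Oa and H2-Eb2, which were not among the class II genes called lower. H2-Ab1 and Ciita, which were, have no window there. Of the genes lower in Id2-GFP- pre-CD8 41 of 453 held it (9.05%), and of those higher 12 of 316 (3.8%). The E box CAGGTG, a sequence that E proteins bind, was searched on both strands. It was found for 25.6% of the genes higher in Id2-GFP- pre-CD8, 18.1% of those lower and 22.2% of all genes with a promoter. A gene can have several windows. Counted by window the shares were 20.5%, 15.6% and 19.6%, in that order. A match is a description of letters and not a bound site.

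Genes of G2 and mitosis were low in Id2-GFP- pre-CD8. Of 34 such genes 25 fell and 0 rose, and the median was -1.54, -1.46 within the brighter pair and -1.61 within the dimmer pair. In all 34 both Id2-GFP- pre-CD8 arrays were below both Id2-GFP+ CDP arrays, as in 17.7% of all genes. Nuf2, a kinetochore protein, had 7.71 and 7.46 in Id2-GFP- pre-CD8, against 9.44 and 9.30 in Id2-GFP+ CDP, a fall of 1.79 ± 0.20 with an adjusted p of 0.00258. Prc1, a spindle midzone protein, fell by 1.84 ± 0.20 and Birc5, survivin, by 1.81 ± 0.21. Mki67, the proliferation antigen Ki-67, had 11.37 and 10.45 in Id2-GFP- pre-CD8, against 12.02 and 12.67 in Id2-GFP+ CDP, with an adjusted p of 0.0629. The count of 25 was 8 without Id2-GFP- pre-CD8 replicate 2 and 12 without Id2-GFP+ CDP replicate 2. S phase genes gave 4 of 34 lower (Ccne1, Rrm2, Ccne2 and Gins3) and 0 higher, with a median of -0.32, and each of the 4 lost its call in at least 1 of the left-out cases given below. With the brighter and dimmer arrays as a block, 16 of the 34 S phase genes were lower and 2 higher, and all 34 genes of G2 and mitosis were lower. Quantile normalisation gave 9 lower S phase genes. The number of 4 was 2 without either Id2-GFP- CDP array, 1 without Id2-GFP+ CDP replicate 1, and 0 with replicate 2 of either candidate left out. The Y box letters were found in the promoter windows of 7 of 28 G2 and mitosis genes.

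Sensors of infection and migration receptors were also divided. Of 17 toll-like receptors and adaptors 7 fell and 1 rose. Tlr7, an RNA sensor of plasmacytoid dendritic cells, had 9.57 and 9.17 in Id2-GFP- pre-CD8, against 5.97 and 6.90 in Id2-GFP+ CDP, a rise of 2.94 ± 0.36. Tlr1, a lipopeptide sensor, fell by 2.40 ± 0.29 and Tlr9, a DNA sensor, by 1.53 ± 0.27. Tlr9 was not called with Id2-GFP- pre-CD8 replicate 1 or either array of Id2-GFP+ CDP left out. The 7 were 2 without Id2-GFP- pre-CD8 replicate 1 and 3 without either Id2-GFP+ CDP array. Of 18 chemokine receptor and migration genes 7 fell, among them Ccr2, Cx3cr1, Gpr183, an oxysterol receptor, by 2.41 ± 0.27 and Cxcr2, a neutrophil chemokine receptor, by 2.66, and 2 rose, Ccr9 and the integrin gene Itga4 by 0.91. The 2 were 1 without any single array of either candidate, where Itga4 lost its call. Of 23 interferon response genes 6 rose and 0 fell, with a median of 0.68. Ifi205, the interferon-inducible gene with the largest fall, is not on this list. Rtp4 had 10.42 and 10.04 in Id2-GFP- pre-CD8, against 7.02 and 7.94 in Id2-GFP+ CDP, a rise of 2.75 ± 0.42. The 6 were 3 without Id2-GFP- CDP replicate 2, 2 without Id2-GFP- pre-CD8 replicate 2, 1 without Id2-GFP+ CDP replicate 1 and 0 without Id2-GFP- pre-CD8 replicate 1.

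Markers of plasmacytoid dendritic cells passed in both directions. Of 20 such genes 4 rose and 2 fell, the 4 being Dntt, Ccr9, Tlr7 and Tcf4 and the 2 being Tlr9 and Lair1, an inhibitory collagen receptor. The 2 became 0 with Id2-GFP- pre-CD8 replicate 1 or Id2-GFP+ CDP replicate 2 left out, and 1 with either Id2-GFP- CDP array, Id2-GFP+ CDP replicate 1 or Id2-GFP- pre-CD8 replicate 2 left out. Siglech, a surface lectin of these cells and of their precursors, differed between its own replicates more than between the groups, with 8.53 and 10.44 in Id2-GFP- pre-CD8, against 8.13 and 8.12 in Id2-GFP+ CDP, and an adjusted p of 0.353. Spib, a factor of plasmacytoid cells, differed by -0.01. Of 17 markers of cDC2, the class that expresses Sirpa, 4 fell and 1 rose. The 4 were Cd209a, Clec10a, Klf4 and Ccr2, and the 1 was Ltb, lymphotoxin beta, by 1.55. Clec10a was not called with Id2-GFP- pre-CD8 replicate 1 left out. Of 21 markers of T cells, NK cells and innate lymphoid cells 4 fell and Il7r alone rose. The 4 were 1 with Id2-GFP- pre-CD8 replicate 1 left out, where 2 rose, and 2 with replicate 2 of either candidate left out. Limma called 0 of 10 erythroid and megakaryocyte markers, 0 of 12 genes of class I antigen presentation, 0 of 28 of ribosome biogenesis and 0 of 27 of oxidative phosphorylation. At an unadjusted p under 0.05 these numbers were 3, 3, 5 and 2. With the brighter and dimmer arrays as a block 20 of the 28 ribosome biogenesis genes were higher, where the list median was 0.47. In that fit early lymphoid genes had 14 higher and 1 lower, interferon response genes 15 higher and 1 lower, and dendritic cell transcription factors 8 higher and 13 lower. Class II genes had 1 higher and 8 lower, shared conventional markers 3 higher and 10 lower, cDC2 markers 4 higher and 9 lower, and plasmacytoid markers 8 higher and 4 lower. Primary granule genes had 4 lower, T, NK and innate lymphoid markers 2 higher and 7 lower, and chemokine receptor and migration genes 4 higher and 9 lower. The plot of list medians sets these lists beside each other.

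**Figure D2:**
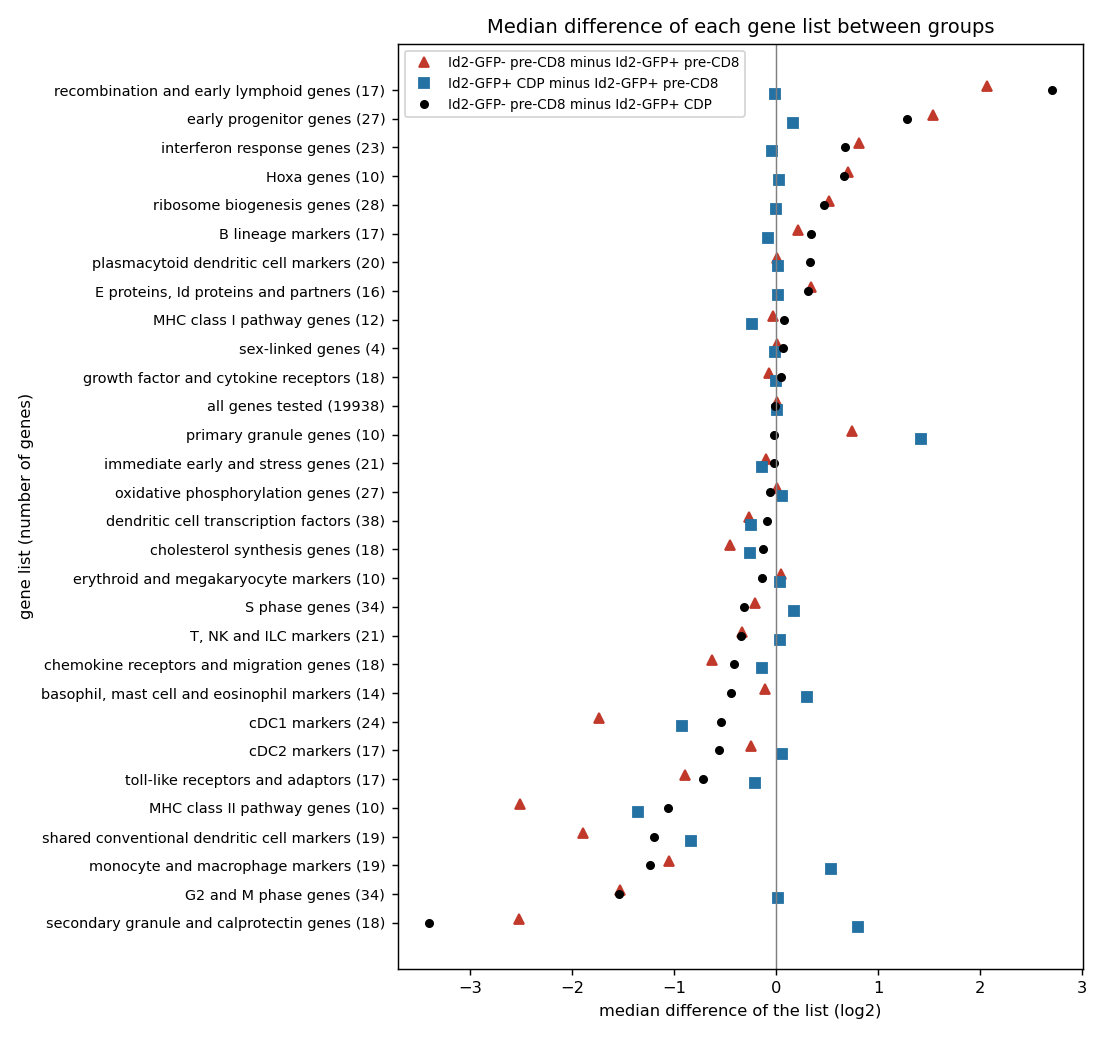
Median log2 difference (horizontal axis) of each gene list (vertical axis, number of genes in brackets) for Id2-GFP- pre-CD8 minus Id2-GFP+ CDP (circles), Id2-GFP- pre-CD8 minus Id2-GFP+ pre-CD8 (triangles) and Id2-GFP+ CDP minus Id2-GFP+ pre-CD8 (squares). The early lymphoid list lies at 2.70, 2.07 and -0.01, the G2 and mitosis list at -1.54, -1.53 and 0.02, and the class II list at -1.06, -2.51 and -1.35, in that order.

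The design also asks which candidate lies nearer to Id2-GFP+ pre-CD8. By the titles Id2-GFP+ CDP shares its reporter status with that end point, and Id2-GFP- pre-CD8 shares its stage. The distances, places and positions below therefore set a shared reporter status against a shared stage. The order in which the populations arise was not tested. Measured as the root-mean-square log2 difference over all genes between arrays of the same brightness, Id2-GFP- pre-CD8 was 0.608 (brighter) and 0.543 (dimmer) away. Id2-GFP+ CDP was 0.320 and 0.269 away. Each Id2-GFP- pre-CD8 array was farther from each Id2-GFP+ pre-CD8 array than either Id2-GFP+ CDP array was. The mean distances differed by 0.241, and an exact permutation test over the 4 candidate arrays gave a two-sided p of 0.333, the smallest that its 6 splits allow. Id2-GFP- pre-CD8 was itself closer to Id2-GFP- CDP, at 0.400 (brighter) and 0.438 (dimmer), than to Id2-GFP+ pre-CD8. It was not closer to Id2-GFP- CDP than the other candidate was in both sets. Id2-GFP+ CDP lay 0.402 (brighter) and 0.392 (dimmer) from Id2-GFP- CDP. Between group means, 1399 genes differed by more than 1 on the log2 scale for Id2-GFP- pre-CD8 (7.02%), and 190 for Id2-GFP+ CDP (0.953%). The median absolute difference from Id2-GFP+ pre-CD8 was 0.162 for Id2-GFP- pre-CD8 and 0.103 for Id2-GFP+ CDP.

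**Figure D3:**
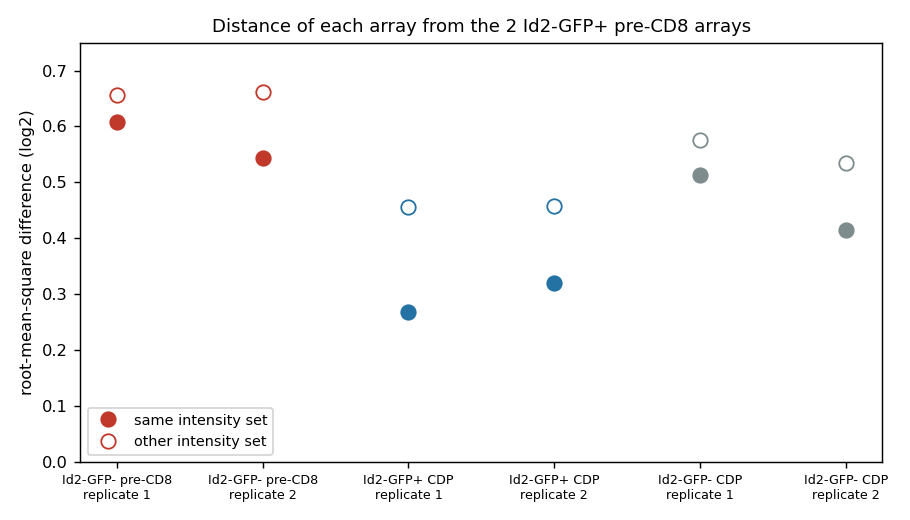
Root-mean-square log2 difference over all genes (vertical axis) of each array of Id2-GFP- pre-CD8, Id2-GFP+ CDP and Id2-GFP- CDP from the 2 Id2-GFP+ pre-CD8 arrays, with filled points for an array of the same brightness and open points for the other. The Id2-GFP- pre-CD8 arrays lie at 0.543 to 0.661 and the Id2-GFP+ CDP arrays at 0.269 to 0.458.

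Tested gene by gene with limma, Id2-GFP- pre-CD8 had 538 genes higher and 711 lower than Id2-GFP+ pre-CD8 (2.7% and 3.57%). The total of 1249 was 627 and 621 without replicate 1 or 2 of Id2-GFP- pre-CD8, and 818 and 466 without replicate 1 or 2 of Id2-GFP+ pre-CD8. For Id2-GFP+ CDP set against Id2-GFP+ pre-CD8 it called 0 genes (0%), although 643 had an unadjusted p under 0.05 (3.22%). A lack of calls does not show that the pair is alike. With the brighter and dimmer arrays as a block, which was drawn from the same intensities, 414 genes were called (2.08%). These comparisons share the Id2-GFP+ pre-CD8 arrays, so the values are given side by side. Relative to Id2-GFP+ pre-CD8, Clec9a differed by -4.29 in Id2-GFP- pre-CD8, and by -0.90 in Id2-GFP+ CDP. Cd226 differed by -5.02 and -1.30, and Il7r by 3.91 and -0.36, in the same order of candidates. H2-Ab1 differed by -3.34 for Id2-GFP- pre-CD8 and by -1.92 for Id2-GFP+ CDP, which had an adjusted p of 0.0577. For H2-Aa, Id2-GFP+ pre-CD8 stood at 12.68 and 13.11, above every array of both candidates.

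The place of Id2-GFP+ pre-CD8 was read for the 975 genes called between the candidates, on a scale where Id2-GFP- pre-CD8 is 0 and Id2-GFP+ CDP is 1. The median place was 0.984, with quartiles of 0.805 and 1.16. Id2-GFP+ pre-CD8 was nearer to Id2-GFP+ CDP in 927 genes (95.1%) and nearer to Id2-GFP- pre-CD8 in 48. Within the brighter arrays 912 were nearer to Id2-GFP+ CDP, within the dimmer arrays 913, and 886 in both. A limma contrast of Id2-GFP+ pre-CD8 against the midpoint of the candidates called 1.29% of all genes. Its weights are orthogonal to those of the contrast that chose the genes, but both contrasts use the same spread estimate of a gene. The midpoint calls among the chosen genes are therefore not independent of that choice. This contrast placed 193 of the 975 nearer to Id2-GFP+ CDP, 1 nearer to Id2-GFP- pre-CD8 and left 781 undecided. Those 193 included Rag1, Rag2, Il7r, Blnk, Clec9a, Cd226, Batf3, Ccr2 and H2-Aa. The count of 193 was 12 without Id2-GFP+ pre-CD8 replicate 2, 79 without the other array of that group, 71 and 68 without replicate 1 or 2 of Id2-GFP- pre-CD8, and 118 and 68 without replicate 1 or 2 of Id2-GFP+ CDP. On the same scale the median place of Id2-GFP- CDP was 0.701, with 0.826 over genes higher and 0.566 over genes lower in Id2-GFP- pre-CD8.

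**Figure D4:**
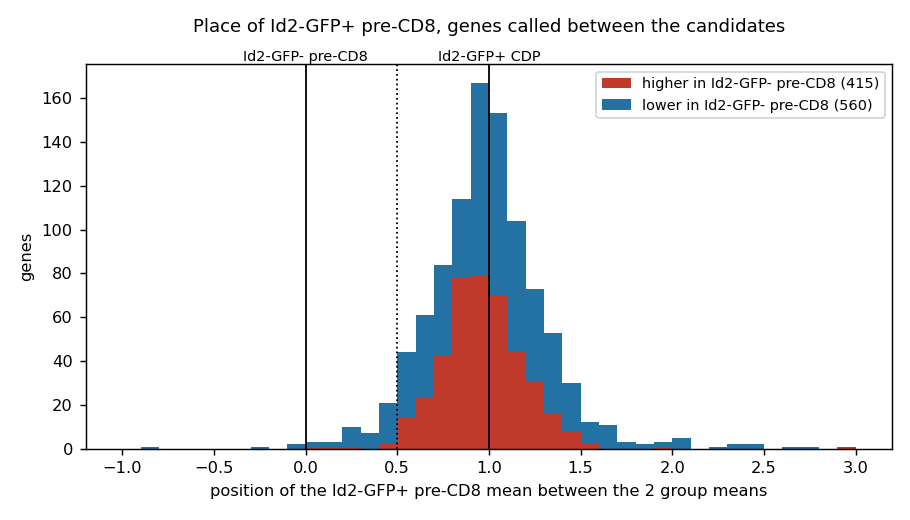
Number of genes (vertical axis) by the place of the Id2-GFP+ pre-CD8 mean (horizontal axis, 0 at Id2-GFP- pre-CD8 and 1 at Id2-GFP+ CDP) for the 415 genes higher and 560 lower in Id2-GFP- pre-CD8, stacked. The bars centre near 1, with 48 of 975 genes below the midpoint drawn as a dotted line.

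The 48 genes nearer to Id2-GFP- pre-CD8 were mostly lower there, 43 against 5 higher, and several are genes of macrophages. The midpoint contrast left all of them but Csf1r undecided. Csf1r was the gene placed by the midpoint contrast: it had 9.30 and 8.90 in Id2-GFP- pre-CD8, against 10.14 and 10.53 in Id2-GFP+ CDP, and 8.09 and 7.93 in Id2-GFP+ pre-CD8. Csf1r was thus lowest on the Id2-GFP+ pre-CD8 arrays and highest on those of Id2-GFP- CDP, at 11.10 and 10.97. The midpoint call was lost when replicate 2 of any of these 3 groups was left out. F13a1, a coagulation factor subunit made by monocytes, had 8.31 and 7.03 in Id2-GFP- pre-CD8, against 9.68 and 10.71 in Id2-GFP+ CDP, and 7.16 on both Id2-GFP+ pre-CD8 arrays. Fn1 stood at 7.83 and 7.10 in Id2-GFP+ pre-CD8, close to Id2-GFP- pre-CD8, and its place was 0.25. Clec10a, a lectin of cDC2 and macrophages, Prtn3, Cxcr2 and Fcgr1, an IgG receptor, were also among the 48. Their places were 0.175, 0.014, 0.469 and 0.392, in that order, where the midpoint is 0.5. Fcgr1 was not called between the candidates with Id2-GFP- pre-CD8 replicate 1 left out, nor was Prtn3 with replicate 2 of either candidate left out. Genes outside the lists were not sorted by lineage, and no gene of the secondary granule list was among the 48. Of the 31 genes of the monocyte and granule lists called between the candidates 6 were among them, 5 from the monocyte list and 1 from the primary granule list. On the higher side Tox, a nuclear factor of T cell and innate lymphoid development chosen here after its values were seen, had 9.47 and 9.39 in Id2-GFP- pre-CD8, against 6.99 and 7.20 in Id2-GFP+ CDP, and 8.90 and 7.92 in Id2-GFP+ pre-CD8.

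A last reading used genes that the candidates did not choose, the 357 called when Id2-GFP+ pre-CD8 was set against Id2-GFP- CDP (1.79%), where the genotype entries also differ. Each candidate was placed on a line from Id2-GFP- CDP at 0 to Id2-GFP+ pre-CD8 at 1. Id2-GFP- pre-CD8 had a median position of 0.049, with quartiles of -0.187 and 0.309, and Id2-GFP+ CDP one of 0.581, with quartiles of 0.445 and 0.746. Over the 277 genes that are higher in Id2-GFP+ pre-CD8 (1.39% of all) the positions were 0.012 for Id2-GFP- pre-CD8 and 0.623 for Id2-GFP+ CDP. Over the 80 that are lower (0.401%) they were 0.282 for Id2-GFP- pre-CD8 and 0.482 for Id2-GFP+ CDP. Over all 357 genes the medians within the brighter arrays were 0.066 for Id2-GFP- pre-CD8 and 0.553 for Id2-GFP+ CDP. Within the dimmer arrays they were 0.047 for Id2-GFP- pre-CD8 and 0.631 for Id2-GFP+ CDP. The 80 lower genes alone gave 0.271 for Id2-GFP- pre-CD8 and 0.344 for Id2-GFP+ CDP within the brighter arrays. Within the dimmer arrays these were 0.264 for Id2-GFP- pre-CD8 and 0.624 for Id2-GFP+ CDP. Of all 357 genes, Id2-GFP+ CDP was farther along in 297 and Id2-GFP- pre-CD8 in 60. Batf3 stood at 0.028 in Id2-GFP- pre-CD8, against 0.527 in Id2-GFP+ CDP, and Cd226 at -0.075 in Id2-GFP- pre-CD8, against 0.722 in Id2-GFP+ CDP. H2-Aa stood at 0.402 in Id2-GFP- pre-CD8, against 0.754 in Id2-GFP+ CDP. S100a8 overshot in Id2-GFP+ CDP, at 0.258 in Id2-GFP- pre-CD8, against 1.14 in Id2-GFP+ CDP. Of the 188 axis genes called between the candidates, Id2-GFP+ CDP was farther along in 168 and Id2-GFP- pre-CD8 in 20. By direction these were 155 and 10 of the genes higher in Id2-GFP+ pre-CD8, and 13 and 10 of those lower. Among those 20 were Ccr9, at 2.24 in Id2-GFP- pre-CD8, against 0.041 in Id2-GFP+ CDP, and H2-Ob, at 1.84 in Id2-GFP- pre-CD8, against 0.252 in Id2-GFP+ CDP. F13a1 and Csf1r, which are low at the Id2-GFP+ pre-CD8 end of the line, stood at 0.878 and 0.641 in Id2-GFP- pre-CD8, and at 0.267 and 0.232 in Id2-GFP+ CDP.

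**Figure D5:**
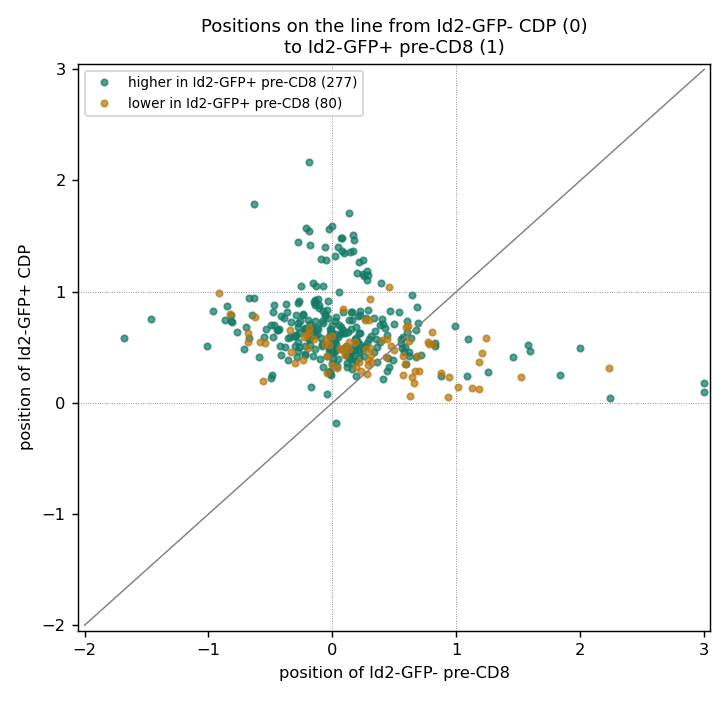
Position of each of 357 genes in Id2-GFP- pre-CD8 (horizontal axis) and Id2-GFP+ CDP (vertical axis) on the line from Id2-GFP- CDP (0) to Id2-GFP+ pre-CD8 (1), coloured by direction, with points beyond 3 drawn at 3. Most points lie above the diagonal, 297 of 357, with medians of 0.049 in Id2-GFP- pre-CD8, against 0.581 in Id2-GFP+ CDP.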

How the data were processed

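RNA of each sample was hybridised to 1 Affymetrix mouse gene array, 8 in all, with 2 arrays in each of 4 groups taken from the titles. The authors ran RMA within Expression Console, per the submitters' processing notes, which state no version. The deposited intensity values are linear for 28853 probe sets, and log2 was taken of them here, since the design had assumed log2 values. RMA compresses low intensities, so differences of dim genes are understated, and no detection call was used. The annotation gave 1 symbol to 21789 probe sets, several to 1621 and none to 5443. The probe set with the highest mean over the 8 arrays stood for each gene, which left 19938 genes. Close paralogs may share signal.

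Groups were compared with limma 3.58.1 (R 4.3.3), fitting 4 group means, all 8 arrays and an intensity trend (4 residual degrees of freedom, prior 4.19), two-sided, adjusted by Benjamini-Hochberg over all genes, with an adjusted p under 0.05 as the threshold. Differences are followed by the standard error of the fit. In simulated data 30%, 84%, 96% and 100% of changes of log2 1, 2, 3 and 4 were recovered for Id2-GFP- pre-CD8 minus Id2-GFP+ CDP. At each size 50 of 19938 genes were changed. With Id2-GFP+ pre-CD8 set level with Id2-GFP+ CDP, the midpoint contrast placed 0%, 34%, 80% and 88% of them nearer to Id2-GFP+ CDP. The simulated noise was independent between arrays, whereas real arrays of like brightness deviated together, so these rates may not carry over. Precision is limited by how few arrays each group has.

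The members, the 29 gene lists and the comparison were chosen with earlier results of these data known. Genes named are Id2, the 15 largest differences in each direction past the threshold without overlap of the groups, in each list up to 4 members of lowest p, a set of regulators and receptors, the genes placed by the midpoint contrast, and list members where a list is described. Tox falls outside this rule. Alternatives were quantile normalisation on top, the array brightness or the titles' replicate number as a block, no variance trend, a filter on dim genes, the mean over probe sets, a fit on the groups compared alone, and each array left out. The replicate numbers did not pair the arrays: across genes, r between the deviations of same-numbered arrays ran from -0.685 to 0.713. Arrays of like brightness deviated together in every pair of groups, with r from 0.626 to 0.713. Brightness was read from the same intensities, so a part of that agreement may be built in. Promoters came from RefSeq (GRCm38.p6). Python 3.11.15 was used for tables and figures.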

Additional observations from a re-analysis of the deposited data

How the results depend on the processing

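Among 179 genes named or examined, of which 127 were called between the candidates, 2658 values were recomputed under the alternatives: 2366 kept direction and side of the threshold, 210 lost the call, 71 gained one and 11 changed sign. Those 11 belonged to genes not called. Uty was at 0.0305 with quantile normalisation, and leaving out single arrays gave -0.149 to 0.0852 for Uty, -0.0463 to 0.374 for Id3, -0.256 to 0.884 for Zeb2, -1.01 to 0.201 for Nfil3, -0.151 to 0.336 for Tcf3, -0.0596 to 0.321 for Xcr1, -0.314 to 0.252 for Itgae and -0.389 to 0.0997 for Bst2. With quantile normalisation Id2-GFP- pre-CD8 had 1012 genes higher and 1089 lower than Id2-GFP+ CDP, 2567 were called against Id2-GFP+ pre-CD8, 24 between Id2-GFP+ CDP and Id2-GFP+ pre-CD8, 668 and 7 were placed nearer to Id2-GFP+ CDP and Id2-GFP- pre-CD8, and the axis position of Id2-GFP- pre-CD8 was 0.0182. With array brightness as a block these numbers were 2406, 1970, 4822, 414, 1969 and 41, all 975 calls were kept, and the axis position of Id2-GFP+ CDP was 0.630. The titles' replicate block, whose numbers did not pair the arrays, gave 256 higher, 386 lower, 108 and 0 placed, and 0.615 for that position. The filter on dim genes gave 10 calls between Id2-GFP+ CDP and Id2-GFP+ pre-CD8, 336 and 2 placed, and median absolute differences of 0.295 for Id2-GFP- pre-CD8 and 0.126 for Id2-GFP+ CDP. The groups compared alone gave 267 higher and 0 placed nearer to Id2-GFP- pre-CD8. Leaving out single arrays gave 179 to 351 higher, 228 to 528 lower, 466 to 1313 against Id2-GFP+ pre-CD8, 0 to 1 for Id2-GFP+ CDP against it, 12 to 137 and 0 to 5 placed, median absolute differences of 0.162 to 0.225 for Id2-GFP- pre-CD8 and 0.103 to 0.198 for Id2-GFP+ CDP, and axis positions of 0.0275 to 0.159 for Id2-GFP- pre-CD8 and 0.530 to 0.682 for Id2-GFP+ CDP. Fewer arrays give a test less power by construction, and the cause of the other shifts was not tested. The total of 975 was 436 and 502 without Id2-GFP- pre-CD8 replicate 2 and 1, and 597 and 631 without Id2-GFP+ CDP replicate 1 and 2. Signal near the array's floor limits what dim genes show.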
